A study of Mus musculus with 12 samples.

Results

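The genes described here are 10 immediate early genes, *Fos*, *Fosb*, *Fosl1*, *Jun*, *Junb*, *Atf3*, *Egr1*, *Nr4a1*, *Ier2* and *Ier3*, of the 52636 genes in a count table of mouse skin. They were chosen by name, as AP-1, Egr and other rapid-response genes, and each name matched 1 Ensembl gene identifier. The choice was made with earlier results of these data known, so their levels, fold changes and adjusted p-values are given as a description. RNA-seq had been done on skin of C57BL/6 mice (C57BL/6J in the study's methods) aged 3 months on day 14, in 4 groups of 3 mice. By the legend of a supplementary PCR figure of the study, the WT group carried Cdc42 loxp/wt or loxp/loxp alleles without Cre, and the KO group carried Cdc42 loxp/loxp with a Cre recombinase driven by the keratin K5 promoter, which acts in basal keratinocytes and leaves other skin cells with the gene. Both were given normal saline with hydroxypropyl methylcellulose (HPMC) on shaved skin, and the groups WT+ZnO NPs and KO+ZnO NPs were given zinc oxide nanoparticles in this vehicle. All groups therefore shared shaving and the vehicle.

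Immediate early genes are transcribed within minutes of a stimulus such as a growth factor, a wound, a change in osmolarity or cell stress, without new protein synthesis, and most of their transcripts are short-lived. Serum response factor with its ternary complex partners, and CREB family factors, act on their promoters downstream of the MAP kinases. FOS and JUN proteins pair to form AP-1, EGR1 is a zinc finger factor, NR4A1 is an orphan nuclear receptor, and ATF3 is a stress-induced factor that pairs with JUN proteins. In skin, AP-1 is known for its part in wound repair and in the control of keratinocyte differentiation genes.

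The promoters are shown because the genes are grouped here by their shared rapid response, and the cyclic AMP response element core is one of the motifs known from such promoters. RefSeq sequences of GRCm38.p6 held a promoter window for 7 of the 10 genes. In the 250 bases before the start, read on both strands, the core TGACG was present in 5 of these 7 windows (*Fos*, *Fosb*, *Junb*, *Atf3* and *Nr4a1*) and in 17.8% of 32851 windows of the same length. The 150 bases before the start are printed for 5 genes, 5′ to 3′ on the gene's strand, with TGACG or its reverse complement in capitals.
Fos: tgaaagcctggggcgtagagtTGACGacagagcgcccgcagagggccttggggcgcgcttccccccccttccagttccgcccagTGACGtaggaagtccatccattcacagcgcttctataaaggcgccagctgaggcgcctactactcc
Fosb: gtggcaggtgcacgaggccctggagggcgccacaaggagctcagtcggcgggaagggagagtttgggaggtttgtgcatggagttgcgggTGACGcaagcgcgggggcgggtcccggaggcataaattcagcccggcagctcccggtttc
Jun: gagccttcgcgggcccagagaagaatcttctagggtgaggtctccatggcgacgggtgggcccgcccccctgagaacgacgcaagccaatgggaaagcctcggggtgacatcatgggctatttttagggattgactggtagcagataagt
Junb: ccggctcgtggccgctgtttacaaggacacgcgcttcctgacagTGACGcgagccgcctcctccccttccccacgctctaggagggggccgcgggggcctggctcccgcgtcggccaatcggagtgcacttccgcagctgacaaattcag
Nr4a1: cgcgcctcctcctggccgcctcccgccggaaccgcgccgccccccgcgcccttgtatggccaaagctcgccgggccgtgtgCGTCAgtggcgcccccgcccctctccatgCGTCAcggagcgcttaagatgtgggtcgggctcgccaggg
These stretches lie at chr12:85473740-85473889 (plus strand), chr7:19310046-19310195 (minus), chr4:95052223-95052372 (minus), chr8:84978749-84978898 (minus) and chr15:101266696-101266845 (plus). In *Fos* the core occurred at 129 and 66 bases before the start, and the TATA motif TATAAA, found in 12.4% of all windows, at 33 bases. *Fosb* held the core at 60 bases and the EGR motif GCGGGGGCG at 50 bases, a motif of 2.57% of windows that *Nr4a1* held too. In *Nr4a1* the core was read on the opposite strand at 4 places. The starts are RefSeq's: those of *Nr4a1*, *Atf3* and *Ier3* lie inside the genes' GENCODE spans, and the first 6 bases before that of *Fosb* are exonic in GENCODE. The printed *Jun* stretch holds no TGACG. *Jun*, *Junb* and *Ier3* held CCAAT, present in 33.8% of windows. Neither the full element TGACGTCA, which contains the core and was in 1.55% of windows, nor the AP-1 site TGACTCA (4.46%) nor the CArG box (1.47%) was found in the 7 windows. A match of letters is a description of the window and not a measured binding site. Only these fixed letter patterns were sought, so variant sites and sites further from the start were not covered. *Fosl1*, *Egr1* and *Ier2* had no window.

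The transcript of *Cdc42* was read in every library as a check of the labels. Its level, in CPM (the share of a library's counts on the usual per-million scale, after TMM scaling of library sizes in edgeR), was 606, 628 and 616 in WT, and 415, 464 and 440 in KO. Libraries with the WT+ZnO NPs label held 311, 350 and 317, below every KO library, and those with the KO+ZnO NPs label 365, 453 and 314. By edgeR's quasi-likelihood test KO against WT was at -0.49 on the log2 scale (adjusted p = 0.0653), short of a threshold of 0.05. WT+ZnO NPs against WT was called lower, at -0.92 (adjusted p = 0.000799). KO+ZnO NPs against WT+ZnO NPs was not called, at 0.21 (adjusted p = 0.401). The transcript went against the label WT+ZnO NPs, so both ZnO NP groups are named by their label throughout, and each direction drawn below is one between labels. Transcripts of 4 Y-linked genes were present, at 215 to 245 CPM in sum, in all 3 libraries labelled WT+ZnO NPs, in KO replicate 1 and in KO+ZnO NPs replicate 1, and at 0 to 0.0452 CPM in the other 7 libraries, WT included, while the study's methods describe the KO mice as female. Total counts ranged from 21076320 to 28867802 per library, and counts of the 10 genes from 28 to 49741, so that counting error was small beside the spread between mice. All 10 genes passed the filter on low counts, and 18822 genes were tested. Keratinocyte markers, 6 of 6 detected in every library, summed to between 6716 and 21947 CPM. In bulk skin, fewer cells of a type and less RNA per cell cannot be told apart.

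**Figure D1:**
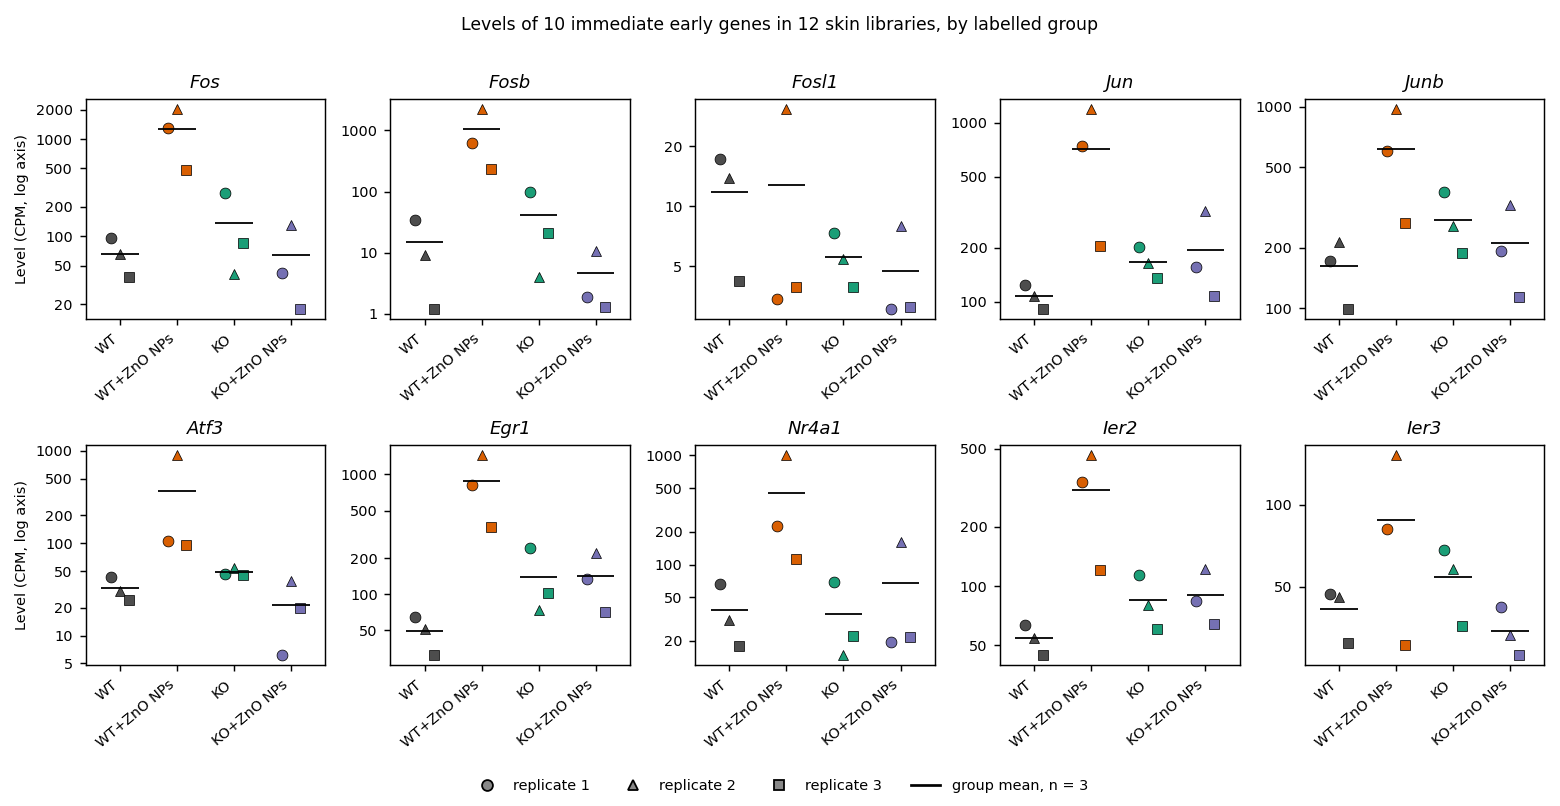
Level of each of the 10 genes in each library, in CPM on a log axis that differs between panels, against the labelled group; points are libraries, with a symbol for each replicate number, and bars are group means (n = 3). For *Fos*, *Fosb*, *Atf3* and *Egr1* all 3 libraries labelled WT+ZnO NPs sit above the 9 others, and replicate 2 of that group is the highest library in all 10 panels.

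The libraries labelled WT+ZnO NPs held the highest mean of all 10 genes. Against WT, 8 of the 10 genes were called higher (edgeR's quasi-likelihood test, Benjamini-Hochberg adjusted p below 0.05 over all genes), in a comparison in which 20.8% of all tested genes were called higher and 43.0% in either direction. The same 8 genes had no overlap between the 2 groups, against 30.1% of all genes that lay without overlap on the higher side and 29.3% on the lower. In *Fos*, *Fosb*, *Atf3* and *Egr1*, 4 of the 10, this group lay above all 9 other libraries, as it did in 6.95% of all genes. The 8 called genes had log2 fold changes from 1.93 (*Junb*) to 6.15 (*Fosb*), and the median over all 10 genes was 3.12, beside 0.06 over all genes. In KO against WT, 0 of 10 genes were called, while 8.18% of all genes were, 4.61% higher and 3.58% lower. There 1 had an unadjusted p below 0.05 (26.1% of all genes did), and DESeq2 called 0. *Jun*, *Atf3* and *Egr1*, 3 of the 10, did not overlap on the higher side, against 18.6% of all genes. Between KO+ZnO NPs and KO, 0 of 10 were called (14.7% of all genes, 6.57% higher and 8.09% lower). There 1 had an unadjusted p below 0.05 (32.6%), DESeq2 called 0, and *Atf3* did not overlap on the lower side, where 17.7% of all genes did not.

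Between the ZnO NP groups, KO+ZnO NPs against WT+ZnO NPs, 4 of the 10 genes were called lower where 1.16% of all genes were, 2.13% being called higher and 3.28% in either direction, and the same 4 did not overlap (10.8% of all genes on the lower side). The interaction, which is the change under ZnO NPs in the KO-labelled minus that in the WT-labelled libraries, was called negative for 5 of the 10, beside 3.59% of all genes, with 5.08% called positive and 8.68% in either direction. The libraries labelled WT+ZnO NPs enter every comparison in which a gene of the 10 was called, so these calls are not separate evidence. The 4 calls became 0 or 1 when any of the 12 libraries was left out, and 0 with only the groups compared or with Y-linked transcripts as a covariate, where the calls over all genes fell from 618 to 0 and 1. The 5 calls of the interaction became 0 without WT replicate 2 or 3 and with that covariate.

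**Figure D2:**
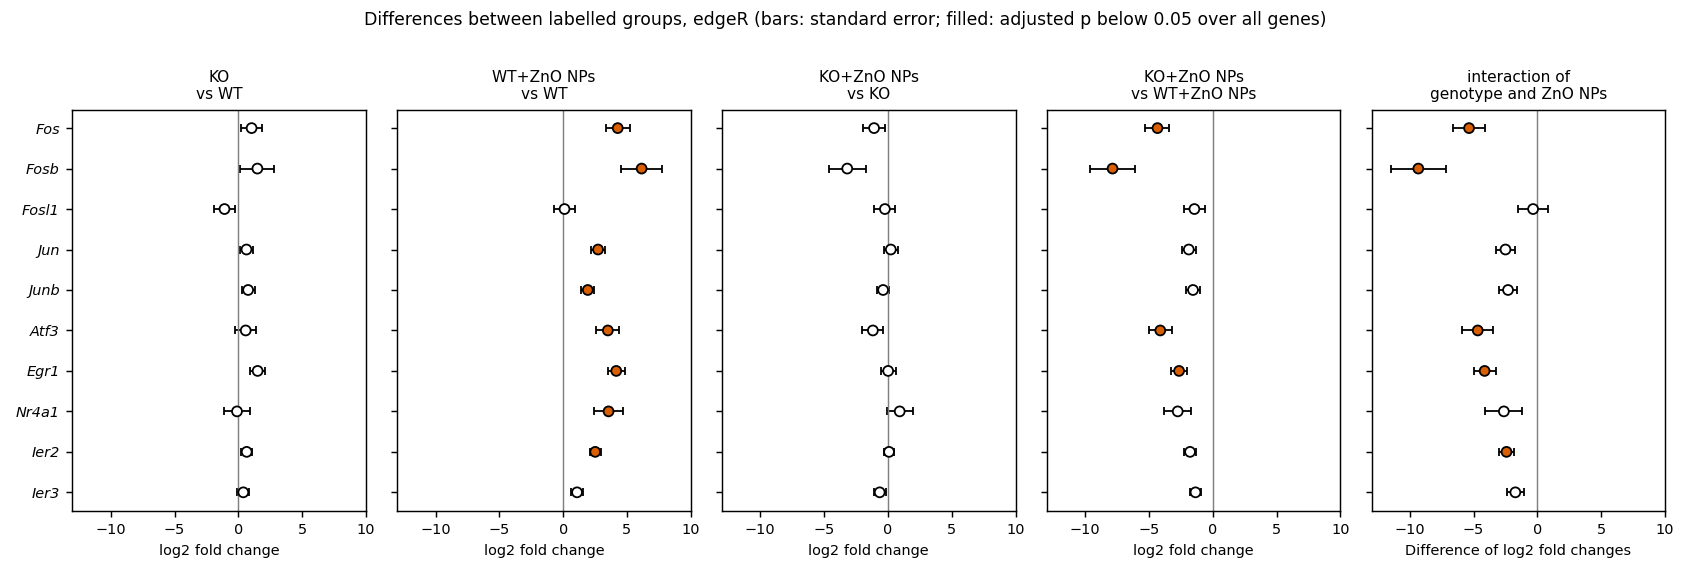
Log2 fold change of each gene (x axis) in the 4 comparisons of labelled groups and, in the last panel, the difference of log2 fold changes between genotypes; bars are standard errors and filled points have an adjusted p below 0.05 over all genes. Filled points are 8 in WT+ZnO NPs vs WT, 4 in KO+ZnO NPs vs WT+ZnO NPs, 5 in the interaction, and 0 in the other 2 panels.

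The order of the genes by level, taken per exon length (counts per exon base, scaled like TPM), differed between the labelled groups. In WT, *Junb* stood first at 196.7 ± 71.2 (SD, n = 3), followed by *Ier3* at 102.7 ± 22.1, *Ier2* at 99.6 ± 17.2, *Jun* at 94.5 ± 14.7 and *Fos* at 78.8 ± 33.8, and these 4 followers did not differ beyond their SD. *Fosb* was last in WT, at 6.59 ± 7.63. In WT+ZnO NPs *Fos* stood first at 1625 ± 996, *Junb* second at 798 ± 462 and *Fosl1* last at 18.9 ± 23.3, and the spread of the first 2 overlapped. *Junb* stood first in KO at 338 ± 104 and in KO+ZnO NPs at 229 ± 97.1, where *Fosb* was last at 1.76 ± 1.89. *Fosl1* was last in KO, at 7.77 ± 2.07.

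*Fos* (ENSMUSG00000021250, chromosome 12 of GRCm38, 85473890 to 85477273, plus strand) encodes the founding FOS partner of AP-1. Its level was 1312, 2051 and 480 CPM in libraries with the label WT+ZnO NPs, and 95.1, 65.2 and 38.2 in WT. The KO libraries held 280, 40.6 and 86.2, and those labelled KO+ZnO NPs held 42.0, 132 and 17.9. The lowest library labelled WT+ZnO NPs thus stood above the highest of the 9 others, KO replicate 1, while WT, KO and KO+ZnO NPs overlapped. *Fos* was 19.4-fold higher in WT+ZnO NPs than in WT (log2 fold change 4.27, standard error (SE) 0.94, adjusted p = 0.00454). With Y-linked transcripts as a covariate *Fos* was not called there, at 3.35 (adjusted p = 0.0979). It was 20.1-fold lower in KO+ZnO NPs than in WT+ZnO NPs (log2 fold change -4.33, SE 0.94, adjusted p = 0.0406), and its interaction was -5.36 (SE 1.24, adjusted p = 0.0284). Without KO+ZnO NPs replicate 2 these were -5.43 and -6.47, and without KO replicate 1 the interaction was -4.26 (adjusted p = 0.0618). Without WT+ZnO NPs replicate 2 both calls were lost, at -3.81 (adjusted p = 0.0677) and -4.84 (adjusted p = 0.0512). Its difference between KO and WT rested on 1 library, its log2 change of 1.03 (adjusted p = 0.473) becoming -0.06 without KO replicate 1.

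*Fosb* (ENSMUSG00000003545, chromosome 7, 19302696 to 19310051, minus strand) encodes a FOS family partner of JUN and had the widest range of the 10 genes. WT held 33.9, 9.06 and 1.19 CPM and WT+ZnO NPs held 616, 2273 and 236. KO held 98.7, 3.98 and 21.1, and KO+ZnO NPs held 1.88, 10.5 and 1.26. The spread within a group was wide too, with the highest WT library 28.5 times the lowest and the highest KO library 24.8 times the lowest, yet no library of another group reached the lowest labelled WT+ZnO NPs. *Fosb* was 6.15 higher than WT on the log2 scale (SE 1.61, adjusted p = 0.0113), and its log2 change was -7.85 in KO+ZnO NPs against WT+ZnO NPs (SE 1.75, adjusted p = 0.0439). The change against WT was 4.85 (adjusted p = 0.0297) without WT+ZnO NPs replicate 2 and 7.65 without WT replicate 1. It was not called with Y-linked transcripts as a covariate, at 4.75 (adjusted p = 0.153). KO+ZnO NPs against WT+ZnO NPs was -6.56 (adjusted p = 0.0662) without WT+ZnO NPs replicate 2 and -9.39 without KO+ZnO NPs replicate 2. The interaction of *Fosb* was -9.34 (SE 2.15, adjusted p = 0.0282), running from -10.88 without KO+ZnO NPs replicate 2 to -7.61 without KO replicate 1 (adjusted p = 0.0608).

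*Fosl1* (ENSMUSG00000024912, chromosome 19, 5447547 to 5455946, plus strand) encodes FRA-1, a FOS family protein that accumulates later after a stimulus and is known from migrating keratinocytes. It did not follow the other 2 FOS genes. Its level was 17.4, 13.9 and 4.21 CPM in WT and 3.44, 30.9 and 3.92 in WT+ZnO NPs. In KO it was 7.32, 5.42 and 3.92, and in KO+ZnO NPs 3.05, 7.96 and 3.14. Replicate 2 labelled WT+ZnO NPs was the highest of all libraries for this gene and the other 2 libraries of the group lay below all of WT. The log2 fold change against WT, 0.11 (SE 0.81, adjusted p = 0.926), turned to -1.69 (adjusted p = 0.0589) without that library. *Fosl1* was called in none of the 5 comparisons. It overlaps *Ccdc85b* on the opposite strand, and whether the counting used strand is not stated.

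*Jun* (ENSMUSG00000052684, chromosome 4, 95049034 to 95052222, minus strand) encodes the JUN partner of AP-1, and overlaps the antisense gene *Junos*. WT libraries held 124, 107 and 91.0 CPM, and those labelled WT+ZnO NPs held 741, 1200 and 204. KO libraries held 202, 163 and 135, and KO+ZnO NPs 157, 320 and 108. *Jun* was even between WT mice, where the highest library was 1.37 times the lowest, and uneven in WT+ZnO NPs, where it was 5.88 times. All WT+ZnO NPs libraries lay above all WT libraries, but replicate 3 lay below the highest KO+ZnO NPs library. The log2 fold change against WT was 2.73 (SE 0.57, adjusted p = 0.00349), and 2.13 (adjusted p = 0.0119) without WT+ZnO NPs replicate 2. KO+ZnO NPs was at -1.87 against WT+ZnO NPs (adjusted p = 0.0790), and the interaction at -2.51 (adjusted p = 0.0673), both short of the threshold, and without WT+ZnO NPs replicate 2 these were -1.28 and -1.91.

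*Junb* (ENSMUSG00000052837, chromosome 8, 84974484 to 84978718, minus strand) encodes a JUN family protein known as a regulator of epidermal growth and inflammation. In CPM, WT held 171, 214 and 99.4, and WT+ZnO NPs held 602, 976 and 264. KO held 376, 257 and 188, and KO+ZnO NPs held 193, 324 and 114. *Junb* rose least of the 8 called genes, with a log2 fold change at 1.93 (SE 0.52, adjusted p = 0.0124), not called with Y-linked transcripts as a covariate, and replicate 3 labelled WT+ZnO NPs lay below KO replicate 1 and KO+ZnO NPs replicate 2. Against WT+ZnO NPs, the KO+ZnO NPs libraries were at -1.54 (adjusted p = 0.100), and the interaction was -2.31 (adjusted p = 0.0693). *Junb* overlaps *Prdx2* on the opposite strand.

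*Atf3* (ENSMUSG00000026628, chromosome 1, 191170296 to 191218039, minus strand) encodes a stress-induced bZIP factor. Its level was 43.2, 30.7 and 24.2 CPM in WT and 107, 908 and 96.7 in WT+ZnO NPs. It was 46.7, 54.5 and 44.9 in KO and 6.15, 38.5 and 19.9 in KO+ZnO NPs. The groups were separate in 4 comparisons: WT+ZnO NPs lay above all 9 other libraries, KO above WT, and KO+ZnO NPs below KO. Only the 2 differences with WT+ZnO NPs were called, at 3.50 on the log2 scale against WT (SE 0.89, adjusted p = 0.00972) and -4.11 in KO+ZnO NPs against WT+ZnO NPs (SE 0.92, adjusted p = 0.0441), together with the interaction of -4.68 (SE 1.20, adjusted p = 0.0394). Replicate 2 set much of the size: without it the change against WT was 1.63 (adjusted p = 0.0390), and that of KO+ZnO NPs against WT+ZnO NPs was -2.24 (adjusted p = 0.0650), and the interaction -2.81 (adjusted p = 0.0523). KO against WT was 0.57 (SE 0.81, adjusted p = 0.711), and KO+ZnO NPs against KO was -1.18 (SE 0.83, adjusted p = 0.348). *Atf3* overlaps the small RNA gene *Gm24748* on the opposite strand.

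*Egr1* (ENSMUSG00000038418, chromosome 18, 34859823 to 34864984, plus strand) encodes a zinc finger factor induced by serum and wounding. WT held 65.2, 51.4 and 31.2 CPM and WT+ZnO NPs held 818, 1460 and 361, with no library of another group as high as 361. KO held 243, 73.9 and 103, all above WT, and KO+ZnO NPs held 134, 219 and 71.8. The rise in WT+ZnO NPs over WT, 17.9-fold (log2 fold change 4.16, SE 0.66), had the lowest adjusted p of the 10 genes, 0.000759, and was called in 20 of 20 alternatives. KO+ZnO NPs was lower than WT+ZnO NPs by 6.21-fold (log2 fold change -2.64, SE 0.62, adjusted p = 0.0486), which was called in 5 of 20 alternatives, and the interaction was -4.14 (SE 0.86, adjusted p = 0.0201), called in 16 of 19 and at -3.47 without KO replicate 1. *Egr1* was the gene with an unadjusted p below 0.05 in KO against WT, its log2 change being 1.51 (SE 0.60, adjusted p = 0.140). Between KO+ZnO NPs and KO its log2 fold change was 0.02 (SE 0.58, adjusted p = 0.989).

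*Nr4a1* (ENSMUSG00000023034, chromosome 15, 101254269 to 101274795, plus strand) encodes the orphan nuclear receptor NUR77. Its level was 66.3, 30.8 and 18.0 CPM in WT and 228, 1013 and 112 in WT+ZnO NPs, without overlap. KO held 69.9, 14.9 and 22, and KO+ZnO NPs held 19.7, 161 and 21.5, so that KO+ZnO NPs replicate 2 passed the lowest WT+ZnO NPs library. The log2 fold change against WT was 3.56 (SE 1.10, adjusted p = 0.0243), and was not called without WT+ZnO NPs replicate 2, where it was 2.15 (adjusted p = 0.110), or without WT replicate 2 or 3 or with Y-linked transcripts as a covariate. KO+ZnO NPs against WT+ZnO NPs was -2.74 (SE 1.07, adjusted p = 0.145), and the interaction was -2.63 (SE 1.44, adjusted p = 0.263). Without WT+ZnO NPs replicate 2 these were -1.33 and -1.22, and without KO+ZnO NPs replicate 2 they were -4.47 and -4.37.

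*Ier2* (ENSMUSG00000053560, chromosome 8, 84661331 to 84662852, minus strand) encodes a nuclear protein of the rapid response. It held 63.2, 54.6 and 44.5 CPM in WT and 340, 466 and 120 in WT+ZnO NPs. KO held 114, 80.4 and 60.5 and KO+ZnO NPs held 84.4, 123 and 63.8, where the highest library just passed the lowest of WT+ZnO NPs. Within groups other than WT+ZnO NPs, *Ier2* varied little, by 1.42 to 1.92 times from the lowest to the highest library. The log2 fold change against WT was 2.51 (SE 0.45, adjusted p = 0.00146), and the interaction was -2.43 (SE 0.61, adjusted p = 0.0360). KO+ZnO NPs against WT+ZnO NPs was just outside the threshold at -1.78 (SE 0.44, adjusted p = 0.0521).

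*Ier3* (ENSMUSG00000003541, chromosome 17, 35821684 to 35822923, plus strand) encodes a protein known from the control of apoptosis and MAP kinase signalling, and not a DNA-binding factor. Its level was 47.3, 45.8 and 31.2 CPM in WT and 81.4, 152 and 30.7 in WT+ZnO NPs. KO held 68.4, 58.2 and 35.9, and KO+ZnO NPs 42.2, 33.5 and 28.2. Replicate 3 labelled WT+ZnO NPs was at the level of the lowest WT library, and the groups overlapped. *Ier3* did not pass the threshold in any comparison, with 1.09 against WT (SE 0.46, adjusted p = 0.0784) and -1.35 in KO+ZnO NPs against WT+ZnO NPs (SE 0.46, adjusted p = 0.110). Without WT+ZnO NPs replicate 3 it was called in WT+ZnO NPs against WT, adjusted p = 0.00906. Without WT+ZnO NPs replicate 2 that change was 0.43 (adjusted p = 0.408), and KO+ZnO NPs against WT+ZnO NPs was -0.69.

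Over the 12 libraries, which hold the group differences and share the depth and composition of each library, the log2 CPM of each gene had a Pearson r of 0.810 (*Ier3*) to 0.948 (*Junb*) with the mean z score of the other 9, apart from *Fosl1* at 0.464. The order of the libraries within a group was alike for most genes at its upper end and less so at its lower end in the KO-labelled groups. WT replicate 1 was the highest of its group for 9 of the 10 genes and WT replicate 3 the lowest for all 10. KO replicate 1 was highest for 9, KO+ZnO NPs replicate 2 for 9 and WT+ZnO NPs replicate 2 for all 10, and WT+ZnO NPs replicate 3 was lowest for 9. The lowest KO library was replicate 3 for 6 genes and replicate 2 for 4, and the lowest KO+ZnO NPs library was replicate 3 for 7 and replicate 1 for 3. The same order was not counted over all genes. The mean z score was 1.09, 2.12 and 0.24 for WT+ZnO NPs, so that replicate 3 lay below KO replicate 1, at 0.32. By the same score the other groups ran from -0.99 to -0.14 in WT, from -0.44 to 0.32 in KO and from -0.94 to 0.13 in KO+ZnO NPs. Outside the lists used here, genes of at least 1 CPM with a profile most like this score were *Gm6627* (Pearson r 0.914 over 12 libraries), *Cramp1l* (0.910), *Hinfp* (0.904) and *Gm17971* (0.901). *Gm6627* had a mean of 3.51 CPM in WT+ZnO NPs and 1.45 in WT. *Gm17971* had 3.31 in WT+ZnO NPs, 0.948 in WT, 1.03 in KO and 0.702 in KO+ZnO NPs. It thus met the floor of 1 CPM only with WT+ZnO NPs included, and its likeness is no separate evidence. *Cramp1l* ran from 41.4 to 52.0 CPM in WT+ZnO NPs and from 33.2 to 40.3 in the other groups.

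**Figure D3:**
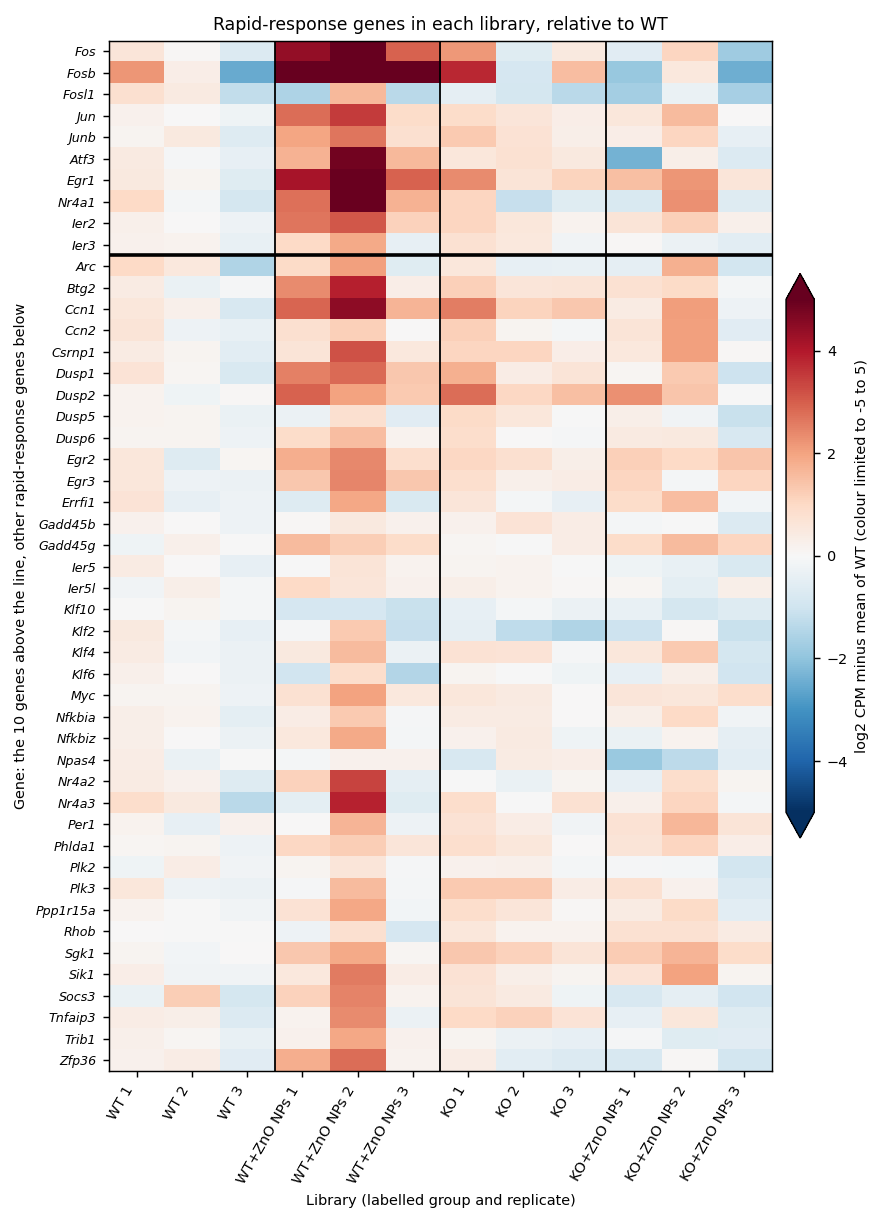
Log2 CPM of the 10 genes (above the line) and of 38 other rapid-response genes (below) in each library, minus the mean of WT, with colour limited to -5 to 5; columns are libraries by labelled group and replicate. The column of WT+ZnO NPs replicate 2 is the darkest red in the upper block, where its mean z score is 2.12, and WT+ZnO NPs replicate 3 the palest of its group.

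Several other measures moved with the libraries labelled WT+ZnO NPs, and their part in the levels of the 10 genes was not tested. Mitochondrial genes took 3.66% to 5.29% of counts there and 3.93% to 4.67% in KO+ZnO NPs, against 2.42% to 3.20% in WT and 2.47% to 2.92% in KO. Over all genes 20.8% were called higher in WT+ZnO NPs than in WT and 22.1% lower, the shares to set beside the marker counts below. Of the keratinocyte markers 3 of 6 were called higher than in WT and 2 lower. *Krt15*, a basal keratin, had a mean of 863 CPM against 281 in WT, while *Krt1* and *Krt10*, keratins of differentiating layers, had means of 288 against 1251 and 482 against 2389. Fibroblast markers were called higher for 1 of 5, near the share of all genes, and lower for 2. Macrophage markers summed to 103 to 206 CPM in WT+ZnO NPs and 1454 to 2301 in WT, with 5 of 5 called lower and none at 0. They summed to 928 to 1678 CPM in KO and 158 to 374 in KO+ZnO NPs. Neutrophil markers summed to 6.12 to 76.3 CPM in WT+ZnO NPs and 251 to 319 in WT (3 of 5 called lower, *Retnlg* at 0 in some libraries), and to 144 to 679 in KO and 19.1 to 71.2 in KO+ZnO NPs. Endothelial markers (4 of 4 called lower) summed to 94.8 to 216 CPM against 491 to 528 in WT, and adipocyte markers (3 of 4 called lower) to 207 to 462 against 1551 to 2360. Melanocyte markers (5 of 5 called higher) summed to 368 to 1154 CPM against 12.5 to 34 in WT, and markers of the growing (anagen) hair follicle (7 of 7 called higher, *Krt71* at 0 in some libraries) to 941 to 4898 against 4.42 to 8.58. Endothelial sums were 284 to 355 in KO and 205 to 675 in KO+ZnO NPs, and adipocyte sums 709 to 1440 and 41.1 to 1394. In KO and KO+ZnO NPs the follicle sums ran from 18.4 to 11604 and from 204 to 8450 CPM, and the melanocyte sums from 40.7 to 192 and from 274 to 462 CPM. Of T cell markers 1 of 4 was called lower in WT+ZnO NPs than in WT, of mast cell markers 2 of 4 lower and 1 higher, and of red blood cell markers 0 of 5. The T cell count was near the share of all genes. Among the 3 libraries labelled WT+ZnO NPs, replicate 2 had the highest fibroblast marker sum, 25511 CPM against 5787 and 7189, and replicate 1 the highest skeletal muscle marker sum, 17887 CPM. Y-linked transcripts were in KO replicate 1, the highest KO library for 9 of the 10 genes, and in KO+ZnO NPs replicate 1, the highest of its group for 1. No WT library held them, so WT and WT+ZnO NPs could not be compared within libraries alike in this. A covariate for their presence took its size from the KO-labelled groups, where replicate 1 of each held them, and was carried over to WT+ZnO NPs. That fit therefore cannot separate the label from these transcripts between WT and WT+ZnO NPs. In it 4 of the 8 genes were still called in WT+ZnO NPs against WT: *Egr1* at 3.42 (adjusted p = 0.0252), *Atf3* at 4.51 (0.0358), *Ier2* at 2.22 (0.0398) and *Jun* at 2.72 (0.0489). The other 4 were not called in that fit, with *Fos* at 3.35 (adjusted p = 0.0979), *Fosb* at 4.75 (0.153), *Junb* at 1.62 (0.159) and *Nr4a1* at 3.18 (0.212). There no gene of the 10 was called in KO+ZnO NPs against WT+ZnO NPs or in the interaction, though the fold changes kept their direction. KO+ZnO NPs against WT+ZnO NPs was then at -3.56 for *Fos*, -6.61 for *Fosb*, -4.97 for *Atf3* and -2.09 for *Egr1*. The interaction was then at -4.03 for *Fos*, -7.12 for *Fosb*, -5.95 for *Atf3*, -3.21 for *Egr1* and -2.09 for *Ier2*.

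Calls between the ZnO NP groups lay near the threshold. In KO+ZnO NPs against WT+ZnO NPs the 4 called genes became 0 or 1 whichever of the 12 libraries was left out, *Fos* staying called in 4 of these fits and *Atf3* in 1, also when that library was of WT or KO and outside the comparison. Over all alternatives the log2 fold change ran from -5.43 to -3.56 for *Fos*, from -9.39 to -6.56 for *Fosb*, from -4.97 to -2.24 for *Atf3* and from -3.11 to -2.06 for *Egr1*, while DESeq2 called 7 of the 10 genes and the fit with the replicate number as a block 6. For the interaction the 5 calls became 1 without KO replicate 1, KO replicate 3 or KO+ZnO NPs replicate 1. They became 2 without WT+ZnO NPs replicate 2, and 3 without WT replicate 1, KO replicate 2 or KO+ZnO NPs replicate 3. Without WT+ZnO NPs replicate 1 they became 4, and without WT+ZnO NPs replicate 3 or KO+ZnO NPs replicate 2 they became 7. *Egr1* was the gene most often called there. The 8 calls of WT+ZnO NPs against WT became 7 to 9.

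Of 14 other members of the AP-1 family and their partners, 4 were called higher and 4 lower in WT+ZnO NPs against WT, with a list median of -0.04. Over all genes 20.8% were called higher and 22.1% lower. *Jund*, the third JUN gene, rose by 1.15 on the log2 scale (SE 0.38, adjusted p = 0.0312), from 58.0 to 87.0 CPM in WT to 80.7 to 246 CPM, with an overlap of the groups. *Fosl2*, the remaining FOS gene, rose by 1.09 (SE 0.33, adjusted p = 0.0229), from 108 to 131 CPM to 159 to 408 CPM. *Batf* and *Batf2*, AP-1 partners known from lymphoid and myeloid cells, fell by 2.63 (SE 0.27, adjusted p = 6.23e-05) and 2.59 (SE 0.55, adjusted p = 0.00393), and *Batf* went from 8.29 to 11.3 CPM in WT to 1.36 to 1.96 CPM. Against KO, KO+ZnO NPs had 3 called lower beside 8.09% of all genes, *Batf* by -1.88 (SE 0.26, adjusted p = 0.00556) and *Batf3* by -1.63 (SE 0.41, adjusted p = 0.0267) among them. In KO against WT and in KO+ZnO NPs against WT+ZnO NPs edgeR called 0 of 14, beside 8.18% and 3.28% of all genes, with 4 and 3 at an unadjusted p below 0.05 (26.1% and 24.8% of all genes), and DESeq2 called 1 in each. *Mafg*, a small MAF protein, was the 1 gene of 14 called in the interaction (3.59% of all genes called negative), at -0.59 (SE 0.14, adjusted p = 0.0285), with levels of 94.1 to 112 CPM in WT+ZnO NPs and 67.3 to 90.6 CPM in all other libraries.

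The other rapid-response genes, 38 in all, leaned the same way as the 10 genes in WT+ZnO NPs against WT. There 12 were called higher and 1 lower (20.8% and 22.1% of all genes), 36 of 38 had a positive log2 fold change, and the median was 0.99 beside 0.06 for all genes and 3.12 for the 10. Of the 38, 11 lay without overlap on the higher side, where 30.1% of all genes did, and 20 had an unadjusted p below 0.05 (51.6% of all genes). Those 2 counts were near the shares of all genes. *Ccn1*, a matricellular growth factor target, was at 221, 643 and 93.8 CPM in WT+ZnO NPs and at 42.8, 34.2 and 16.7 in WT, for a log2 change of 3.35 (SE 0.82, adjusted p = 0.00799). *Btg2*, an antiproliferative gene, was at 305, 864 and 74.5 CPM against 78.9, 46.2 and 56.2, for a log2 change of 2.78 (SE 0.68, adjusted p = 0.00806). For both, replicate 2 was again highest and replicate 3 lowest, and for *Btg2* replicate 3 lay within the range of WT. *Klf10*, a TGF-beta response factor, was the gene called lower, at -0.93 (SE 0.15, adjusted p = 0.000839).

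In KO against WT edgeR called 0 of the 38, beside 8.18% of all genes, with 3 at an unadjusted p below 0.05 (26.1% of all genes) and 1 called by DESeq2. *Gadd45g*, a stress and growth arrest gene, rose in KO+ZnO NPs against KO by 1.05 (SE 0.22, adjusted p = 0.0145) and its relative *Gadd45b* fell by 0.68 (SE 0.20, adjusted p = 0.0486), each 1 of 38 beside 6.57% of all genes higher and 8.09% lower. *Zfp36*, which destabilises short-lived transcripts, was the 1 gene of 38 called in KO+ZnO NPs against WT+ZnO NPs, where 1.16% of all genes were called lower, at -2.43 (SE 0.58, adjusted p = 0.0497), with 62.2, 112 and 56.9 CPM against 376, 750 and 122. *Ccn1* was the 1 gene of 38 called in the interaction, where 3.59% of all genes were called negative, at -4.07 (SE 1.10, adjusted p = 0.0465).

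**Figure D4:**
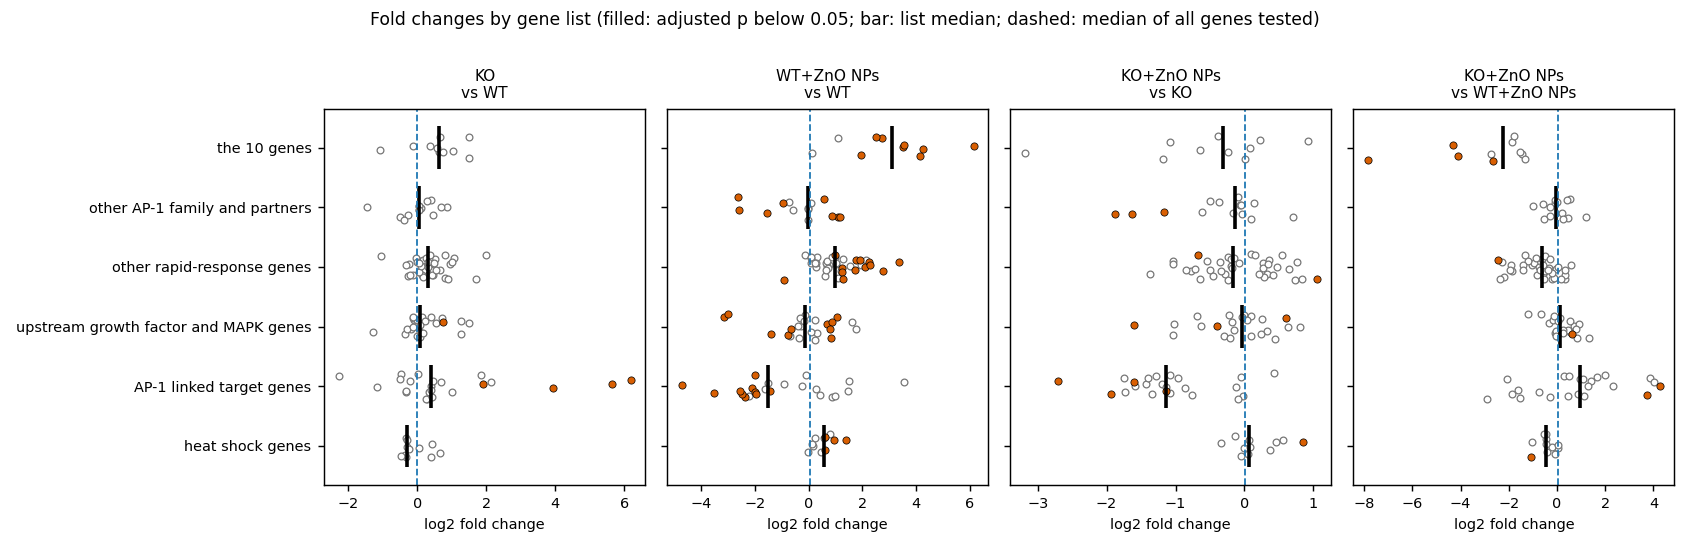
Log2 fold change of each gene in 6 lists (rows) in the 4 comparisons of labelled groups; filled points have an adjusted p below 0.05 over all genes, black bars are list medians, and dashed lines the median of all genes tested. In WT+ZnO NPs vs WT the median of the 10 genes is 3.12 and that of the AP-1 linked target genes is -1.52.

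Genes upstream of the rapid response, 23 epidermal growth factor family ligands and receptors, MAP kinases and promoter-bound factors, were called in both directions in WT+ZnO NPs against WT, 5 higher and 5 lower (median -0.15), beside 20.8% of all genes higher and 22.1% lower, so that the counts were near those of all genes. The ligands *Ereg* and *Btc* fell by 3.14 (SE 0.77, adjusted p = 0.00788) and 3.02 (SE 0.51, adjusted p = 0.00101), *Ereg* from 32.0 to 97.8 CPM in WT to 4.55 to 11.9 CPM. The receptor *Egfr* rose by 1.04 (SE 0.24, adjusted p = 0.00605) from 55.2 to 81.6 CPM to 121 to 150 CPM, and the ternary complex factor *Elk4* by 0.86 (SE 0.15, adjusted p = 0.00134). In KO+ZnO NPs against KO, where 0 of the 10 immediate early genes were called, *Elk4* rose by 0.61 (SE 0.15, adjusted p = 0.0257), *Btc* fell by 1.61 (SE 0.48, adjusted p = 0.0465) and the kinase *Mapk14* fell by 0.39 (SE 0.11, adjusted p = 0.0439), beside 6.57% of all genes called higher and 8.09% lower. *Erbb3* was the 1 gene of 23 called in KO against WT, where 4.61% of all genes were called higher, at 0.75 (SE 0.19, adjusted p = 0.0396), and the SRF cofactor *Mrtfb* the 1 called in KO+ZnO NPs against WT+ZnO NPs, where 2.13% were, at 0.62 (SE 0.14, adjusted p = 0.0444).

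Genes linked to AP-1 as targets in other settings, 23 proteases, matrix, inflammatory and cornified envelope genes, were not higher where the 10 genes were. In WT+ZnO NPs against WT, 0 were called higher and 10 lower, beside 20.8% and 22.1% of all genes, and the median was -1.52. DESeq2 called 14 in either direction, and 13 had an unadjusted p below 0.05, as 51.6% of all genes did. *Sprr1b*, a cornified envelope precursor, held 3.16, 4.98 and 1.11 CPM against 58.7, 117 and 68.7 in WT (log2 fold change -4.73, SE 1.06, adjusted p = 0.00501), and *Hmox1*, haem oxygenase, held 15.6, 30.2 and 16 against 132, 342 and 242 (-3.53, SE 0.50, adjusted p = 0.000357). In KO against WT, where none of the 10 genes was called, 4 of these 23 rose beside 4.61% of all genes. They were the proteases *Mmp13*, *Mmp10* and *Mmp9* and the matrix gene *Spp1*, the last 2 named here after their values were seen. *Mmp13*, a collagenase, was at 296, 321 and 134 CPM in KO and 3.99, 3.47 and 2.80 in WT (6.19, SE 0.76, adjusted p = 0.00151), and *Mmp10*, a stromelysin, at 12.6, 17.0 and 8.67 against 0.210, 0.316 and 0.212 (5.66, SE 0.93, adjusted p = 0.00657).

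Between KO+ZnO NPs and WT+ZnO NPs, where *Fos*, *Fosb*, *Atf3* and *Egr1* were lower, 2 targets were called higher, beside 2.13% of all genes. *Mmp9*, a gelatinase, was at 353, 372 and 120 CPM against 7.04, 31.1 and 5.93 (4.26, SE 0.72, adjusted p = 0.0290), and *Mmp13* at 80.1, 147 and 22.1 against 5.40, 10.5 and 2.93 (3.73, SE 0.68, adjusted p = 0.0307). Against KO, 4 were called lower in KO+ZnO NPs beside 8.09% of all genes, with *Mmp10* at -2.70 (SE 0.78, adjusted p = 0.0425) and *Spp1*, osteopontin, at -1.93 (SE 0.52, adjusted p = 0.0337) among them. Several of these genes are also made by macrophages and neutrophils, whose summed markers were lower in both ZnO NP groups than in their vehicle groups. Cornified envelope genes were among those called lower in WT+ZnO NPs against WT, where *Krt1* and *Krt10* also had lower means. Neither part was tested.

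Heat shock genes, 11 chaperones and cochaperones that a general stress response also induces, were called higher for 4 of 11 in WT+ZnO NPs against WT and lower for 0, beside 20.8% and 22.1% of all genes. *Hspa1a*, the inducible HSP70, rose by 1.39 (SE 0.36, adjusted p = 0.0101) from 20.9 to 34.7 CPM to 44.9 to 95.6 CPM, and *Dnajb1*, its cochaperone, by 0.93 (SE 0.31, adjusted p = 0.0327). In KO+ZnO NPs against KO the mitochondrial cochaperonin *Hspe1*, 1 of 11 beside 6.57% of all genes, rose by 0.85 (SE 0.18, adjusted p = 0.0169). *Hsph1*, 1 of 11 beside 1.16% of all genes, was lower in KO+ZnO NPs than in WT+ZnO NPs by 1.06 on the log2 scale (SE 0.16, adjusted p = 0.0221), with 31.6, 40.8 and 39.3 CPM against 82.7, 70.9 and 79.6. In KO against WT edgeR called 0 of 11, beside 8.18% of all genes, with 3 at an unadjusted p below 0.05 (26.1% of all genes) and 1 called by DESeq2.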

How the data were processed

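RNA was extracted from skin with TRIzol. The study's methods describe poly-A selection, a NEBNext Ultra kit, alignment with STAR and counting with HTSeq, whereas the sample labels name a TruSeq kit and the submitters' processing notes list HISAT2 2.0.5 and mm10. Strand use and annotation release are not given in the sources used here. The authors deposited raw whole-number counts, 1 column per library. Of 52636 identifiers, 52403 were matched to GENCODE M21 (GRCm38). 0 rows named no gene.

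The counts were tested in R 4.3.3 with the quasi-likelihood test of edgeR 4.0.16 (TMM factors, filterByExpr, 1 coefficient per group, all 12 libraries in a single fit), with Benjamini-Hochberg adjustment over 18822 genes and a threshold of 0.05. Groups held 3 mice, biological replicates by the study's methods. P-values rest on a spread between mice estimated over all 12 libraries (8 residual degrees of freedom) and moderated across genes. They do not measure the spread of the 2 groups compared alone. The SE of a log2 fold change is its size over the square root of F. Within groups, replicates differed beyond sampling noise (chi-square per degree of freedom 37.4 to 162), so all were kept. Same-numbered replicates were checked for shared deviations (correlations -0.34 to 0.43, not above 0.1 in every pair of any 2 groups) and were not treated as pairs. The members, the lists and the tests were chosen with earlier results of these data known. Named besides the 10 genes and *Cdc42* are, per list and comparison, up to 2 called genes with the largest rise and 2 with the largest fall at a mean of at least 1 CPM, and the 5 genes most like the members in profile, of which 1 is not reported here. In simulated counts with 200 genes changed by 3 on the log2 scale, the test recovered 81.5% between WT+ZnO NPs and WT (18432 genes in that step). Alternatives were RLE factors, library size only, no filter, at least 10 counts in every library, DESeq2 1.42.0, only the groups compared, the replicate number as a block, the presence of Y-linked transcripts as a covariate, and leaving out each of the 12 libraries.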

Additional observations from a re-analysis of the deposited data

Results flagged for a closer look

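Beyond the changes themselves, 7 results drew attention because the change under ZnO NPs differed between the KO-labelled and the WT-labelled libraries by a test of the interaction (edgeR, adjusted p below 0.05), always lower in the KO-labelled ones. The difference of log2 fold changes was -9.34 for *Fosb* (adjusted p = 0.0282), -5.36 for *Fos* (0.0284), -4.68 for *Atf3* (0.0394), -4.14 for *Egr1* (0.0201) and -2.43 for *Ier2* (0.0360). Outside the 10 genes it was -4.07 for *Ccn1* (adjusted p = 0.0465) and -0.59 for *Mafg* (adjusted p = 0.0285). The libraries labelled WT+ZnO NPs, on which all 7 rest, carry *Cdc42* levels that go against their label and Y-linked transcripts that no WT library holds, and the part of either in these differences was not tested beyond the fit with Y-linked transcripts as a covariate. In that fit, whose covariate took its size from the KO-labelled groups, none of the 10 genes was called. The interaction was then -7.12 for *Fosb*, -4.03 for *Fos*, -5.95 for *Atf3*, -3.21 for *Egr1* and -2.09 for *Ier2*. Values of *Ccn1* and *Mafg* in that fit are not given here, while its interaction calls over all genes fell from 1633 to 125.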

How the results depend on the processing

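Of 985 values of the 10 genes under 20 alternatives, 844 kept direction and side of the threshold, 96 lost a call, 19 gained one and 26 changed sign, none of these 26 called in either fit, and the cause was not tested. Of 794 values of the other named genes and *Cdc42*, 623 kept both, 164 lost a call and 7 gained one. DESeq2 gave *Atf3* no adjusted p in 5 comparisons.

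With Y-linked transcripts as a covariate, calls among the 10 genes fell to 4 in WT+ZnO NPs vs WT, 0 in KO+ZnO NPs vs WT+ZnO NPs and 0 in the interaction. Calls over all genes were then 962 in KO vs WT, 3896 in WT+ZnO NPs vs WT, 1 in KO+ZnO NPs vs WT+ZnO NPs and 125 in the interaction. The fit on only the groups compared called 0 of the 10 genes in KO+ZnO NPs vs WT+ZnO NPs, and over all genes 2794 in KO vs WT, 571 in KO+ZnO NPs vs KO and 0 in KO+ZnO NPs vs WT+ZnO NPs. DESeq2 called 7 of the 10 genes in KO+ZnO NPs vs WT+ZnO NPs, and over all genes 3029 in KO vs WT, 4290 in KO+ZnO NPs vs KO, 2322 in KO+ZnO NPs vs WT+ZnO NPs and 3147 in the interaction. Without a filter, 284 genes were called in KO+ZnO NPs vs WT+ZnO NPs and 1086 in the interaction, against 618 and 1633.

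Leaving out 1 library at a time gave 0 to 1 of the 10 genes in KO+ZnO NPs vs WT+ZnO NPs, 0 to 7 in the interaction and 7 to 9 in WT+ZnO NPs vs WT. Over all genes it gave 377 to 2060 in KO vs WT, 5942 to 9095 in WT+ZnO NPs vs WT, 451 to 3195 in KO+ZnO NPs vs KO, 1 to 1609 in KO+ZnO NPs vs WT+ZnO NPs and 461 to 1646 in the interaction. With the replicate number as a block, 0, 8, 0, 6 and 7 of the 10 genes were called in KO vs WT, WT+ZnO NPs vs WT, KO+ZnO NPs vs KO, KO+ZnO NPs vs WT+ZnO NPs and the interaction (1239, 8079, 2598, 626 and 1429 over all genes), although the numbers did not pair the samples.

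The sign changes came mostly from leaving out 1 library, where log2 fold changes ran as follows. In KO vs WT they ran from -0.065 (without KO replicate 1) to 1.48 for *Fos*, from -0.23 (without the same library) to 3.00 for *Fosb*, and from -1.06 to 0.54 (without WT replicate 1) for *Nr4a1*. In KO+ZnO NPs vs KO they ran from -2.16 to 0.010 (without KO replicate 1) for *Fos* and from -0.82 to 0.011 (without KO replicate 1) for *Fosl1*. Leaving out KO+ZnO NPs replicate 2 gave the lowest value for *Jun* (-0.31 to 0.54), *Egr1* (-0.43 to 0.68), *Nr4a1* (-0.77 to 1.87) and *Ier2* (-0.18 to 0.36) in that comparison. *Fosl1* ran from -1.69 to 0.56 in WT+ZnO NPs vs WT, from -2.06 to 0.36 in KO+ZnO NPs vs WT+ZnO NPs and from -0.98 to 1.45 in the interaction, with the end of opposite sign reached without WT+ZnO NPs replicate 2 each time. With the block, *Fosl1* was -0.26 in WT+ZnO NPs vs WT, *Nr4a1* 0.039 in KO vs WT and *Egr1* -0.082 in KO+ZnO NPs vs KO. *Egr1* was also -0.049 with library size only, -0.030 without a filter and -0.0033 with at least 10 counts.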
